A study of Mus musculus with 8 samples.

Results

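Collagen genes were taken as the array features whose gene symbol reads Col, a number, the letter a and a second number. They comprised 43 genes on 73 features, out of 22485 named genes on 33026 features. Of these, 39 collagen genes on 65 features met the minimum of 3 values per group and were tested, as were 20462 genes overall. Col10a1, Col11a1, Col28a1 and Col9a3 had fewer values and were left untested, and Col6a3 was not analysed here. By the form of their proteins the tested genes comprised 10 fibrillar, 6 basement membrane (type IV), 2 short chain, 5 beaded filament (type VI), 8 fibril-associated and 4 transmembrane collagens, 2 multiplexins, the anchoring fibril collagen Col7a1 and Col26a1.

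Kidney messenger RNA of male mice was measured on 8 two-colour oligonucleotide arrays, 4 for +/- and 4 for SDHD-ESR, with RNA of 2 mice on each array, so that a group represented 8 mice. The +/- mice carried 1 floxed and 1 null allele of Sdhd and no Cre recombinase. SDHD-ESR mice carried the same alleles plus a tamoxifen-inducible Cre (Cre-ER), and the +/+ mice of the common reference pool (RNA of 8 mice) had 1 floxed and 1 normal allele without Cre. All were given 100 µg/g tamoxifen for 4 days from 9 weeks of age, and tissue was taken 1 week after the first dose, at 10 weeks. All groups shared a strain background. Sdhd encodes a membrane anchor of succinate dehydrogenase, the complex II of mitochondria. Presence of Cre and loss of Sdhd came together in SDHD-ESR and cannot be told apart, and the promoter that drives Cre is not given in the sources used here.

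Collagens are trimeric proteins of the extracellular matrix, wound from chains that each come from a gene of their own. Fibrillar types I, III and V give interstitial tissue its tensile fibres and are made mainly by fibroblasts and related stromal cells, while type IV forms the sheet under epithelia and endothelia, including the filter of the glomerulus. Type VI makes beaded filaments around cells, and fibril-associated collagens decorate the surface of fibres. Accumulation of types I and III is the hallmark of kidney fibrosis. Chains are hydroxylated by prolyl and lysyl hydroxylases that use 2-oxoglutarate and release succinate, the substrate of succinate dehydrogenase.

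Each value is a log2 ratio of test RNA over the pool, given relative to the median of its array. The sign of the deposited values was turned on the strength of a single feature, Sdhd, which otherwise stood above the pool on all 8 arrays, and every direction given here depends on that choice. Tables in the study are mixed on this point: the one listing the most changed genes runs in the direction used here, the one of hypoxia genes lists Pdk1 and Vegf the other way. Sdhd then was -0.79, -0.40, -0.92 and -0.93 on the +/- arrays and -4.26, -3.65, -5.04 and -3.25 on the SDHD-ESR arrays, without overlap (two-sided p = 0.0286 by an exact permutation test, the minimum for 4 against 4 arrays). Its adjusted p in limma was 0.105, and whether the probe lies inside the deleted stretch is unknown. Array medians before centring ran from -0.19 to 0.41 in +/- and from -0.06 to 0.94 in SDHD-ESR, and Pearson's r between arrays across features was 0.328 to 0.471 (features are not independent replicates). Replicates 1 and 2 of each group shared slide 1 and replicates 3 and 4 slide 2. Position on the slide followed genotype, so the 2 cannot be told apart. Values equal to a ratio of whole numbers up to 50, as dim spots give, made up 9.04% of collagen values and 9.5% of all values. A ratio gives no absolute level, so the presence of kidney markers as such could not be checked.

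SDHD-ESR against +/- asks how the collagen messages stood after loss of the remaining Sdhd allele. Transcripts of several interstitial fibre collagens lay lower in SDHD-ESR kidneys. The fold was 0.578 for Col1a1, 0.598 for Col3a1, 0.669 for Col1a2, 0.598 for Col5a3 and 0.728 for Col5a1. The type V chain Col5a2 stood at 0.949 and the type VI chain Col6a1 at 0.755. Sizes rested in part on a single array: without SDHD-ESR replicate 2 the log2 difference of Col1a1 went from -0.79 to -0.45. The 6 chains of type IV collagen lay between -0.09 and 0.26 of +/- on the log2 scale. None of the 39 collagen genes passed adjustment over all genes in limma, in either direction (smallest adjusted p = 0.504), where 0.00489% of all genes passed as lower. In the methods' t-test on the same values 4 (10.3%) had an unadjusted p within 0.05, against 7.87% of all genes, and 0 passed after Benjamini-Hochberg adjustment. At an unadjusted p of 0.05 or less, 6 collagen genes (15.4%) were lower against 3.75% of all genes, and 0 were higher against 3.96%. In 6 genes (15.4%) the SDHD-ESR arrays were all below the +/- arrays, against 2.78% of all genes, and in 0 genes above them, against 2.84%. Over the family 15 genes were higher and 24 lower, with a median difference of -0.08 against 0.01 for all genes. Without centring, 0 collagen genes were lower at an unadjusted p of 0.05 or less, where 0.239% of all genes were. In whole tissue, fewer cells of a type and less RNA per cell cannot be told apart.

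**Figure D1:**
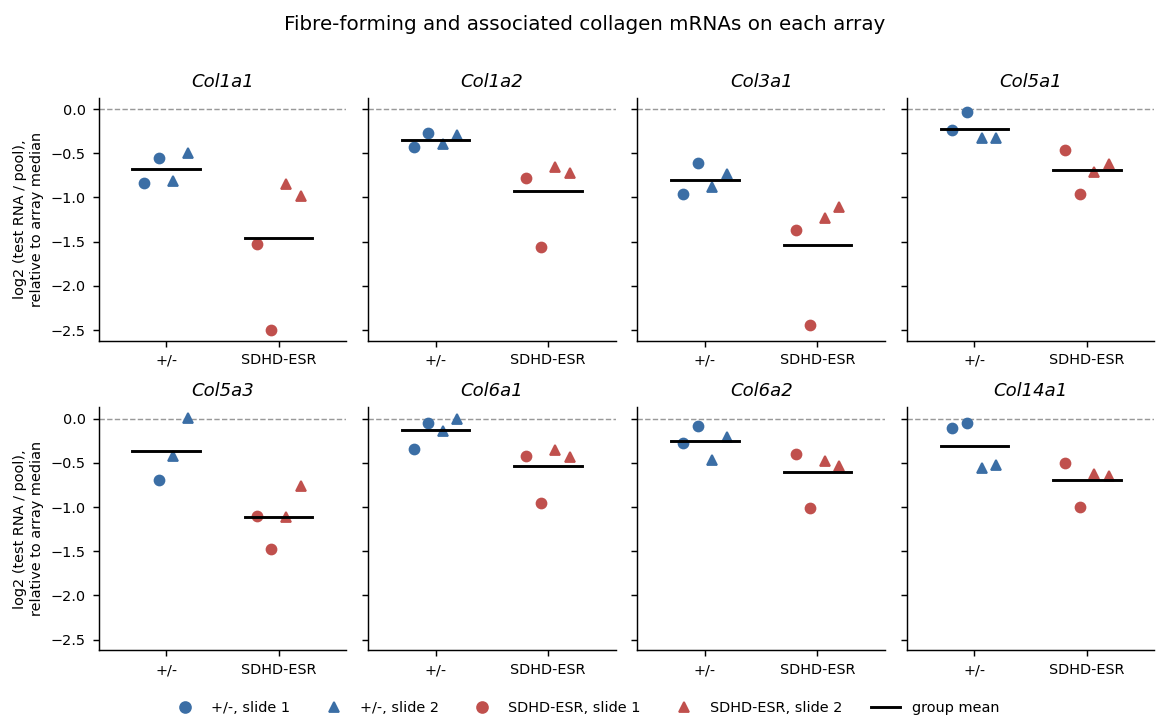
Log2 ratio of test RNA over the +/+ pool, relative to the array median (vertical axis), for 8 collagen genes in +/- and SDHD-ESR (horizontal axis); a point is 1 array, its shape the slide, and the bar the group mean. The 8 genes are those of smallest p among the collagen genes lower in SDHD-ESR. SDHD-ESR replicate 2 is the lowest point of every panel, at -2.50 for Col1a1, and in 6 of the panels the groups do not overlap.

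Type I collagen, the main fibre protein, is a trimer of Col1a1 and Col1a2 chains. Col1a1 was -0.83, -0.55, -0.81 and -0.50 on the +/- arrays and -1.53, -2.50, -0.84 and -0.98 on the SDHD-ESR arrays. Col1a2 was -0.43, -0.27, -0.40 and -0.30 on the +/- arrays and -0.78, -1.56, -0.65 and -0.72 on the SDHD-ESR arrays. For both chains every SDHD-ESR array was below every +/- array, and SDHD-ESR replicate 2 stood far below the rest. The difference was -0.79 ± 0.35 (SE, n = 4 per group) for Col1a1 (limma, unadjusted p = 0.056, adjusted p = 0.660) and -0.58 ± 0.20 for Col1a2 (limma, unadjusted p = 0.0225, adjusted p = 0.587). Without SDHD-ESR replicate 2 it came to -0.45 and -0.37. Within slides Col1a1 differed by -1.32 on slide 1 and by -0.26 on slide 2, and Col1a2 by -0.82 and -0.34.

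Type III collagen is a trimer of Col3a1 chains that builds the fine reticular fibres of soft organs. Col3a1 was -0.96, -0.61, -0.88 and -0.74 on the +/- arrays and -1.37, -2.45, -1.24 and -1.11 on the SDHD-ESR arrays. The groups did not overlap, and +/- itself was below the pool on all 4 arrays. The difference was -0.74 ± 0.29 (SE, n = 4 per group; limma, unadjusted p = 0.0353, adjusted p = 0.611), or -0.44 without SDHD-ESR replicate 2. It came to -1.12 on slide 1 and -0.36 on slide 2.

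The start regions of the type I chain Col1a2 and of Col3a1 are shown, each with 250 bases before and 50 after the start in RefSeq (GRCm38.p6). They lie at chr6:4505368-4505667 and chr1:45311288-45311587, both on the plus strand. Capitals mark matches, searched on both strands, to the CCAAT box, to the sequence TATAAA that often lies ahead of a start, and to the GC box GGGCGG.
Col1a2: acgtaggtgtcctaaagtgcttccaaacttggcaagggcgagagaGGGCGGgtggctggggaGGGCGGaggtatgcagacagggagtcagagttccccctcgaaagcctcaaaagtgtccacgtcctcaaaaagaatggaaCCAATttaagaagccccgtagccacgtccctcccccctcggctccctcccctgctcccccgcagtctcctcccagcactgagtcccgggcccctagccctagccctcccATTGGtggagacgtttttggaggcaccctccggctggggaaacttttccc
Col3a1: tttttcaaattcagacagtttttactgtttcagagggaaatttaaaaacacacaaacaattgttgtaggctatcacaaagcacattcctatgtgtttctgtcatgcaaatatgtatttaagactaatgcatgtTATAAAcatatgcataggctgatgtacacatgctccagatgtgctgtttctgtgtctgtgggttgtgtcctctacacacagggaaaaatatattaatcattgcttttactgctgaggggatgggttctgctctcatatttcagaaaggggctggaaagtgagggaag
The Col1a2 window held the CCAAT box in reverse at position 0 and forward at position -109 from the start. It held GGGCGG at -205 and -188. TATAAA stood at -117 in the Col3a1 window, which had no CCAAT or GGGCGG match. No 2 matches overlapped. Among all 32851 windows of this length, 37.4% held CCAAT, 13.6% TATAAA and 35.7% GGGCGG. Of 34 windows of 31 tested collagen genes, 12 held CCAAT, 4 TATAAA and 22 GGGCGG. A match describes letters only, and a link to the array values was not tested.

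Type V collagen nucleates fibres of type I and sets their width. Its chain Col5a1 was -0.23, -0.04, -0.33 and -0.32 on the +/- arrays and -0.47, -0.96, -0.71 and -0.63 on the SDHD-ESR arrays. It had the smallest p of the family, with a difference of -0.46 ± 0.13 (SE, n = 4 per group; limma, unadjusted p = 0.0075, adjusted p = 0.504), -0.58 on slide 1 and -0.34 on slide 2. The exact permutation test gave p = 0.0286, two-sided, the minimum for 4 against 4 arrays. Col5a1 was singled out by its p on the same arrays, so that value adds no separate support. Col5a3 had 3 values in +/-, -0.70, -0.42 and 0.00 in replicates 2 to 4, and lay at -1.10, -1.47, -1.12 and -0.76 in SDHD-ESR. These did not overlap either, and the difference was -0.74 ± 0.22 (SE; limma, unadjusted p = 0.0144, adjusted p = 0.548; two-sided p = 0.0571 by an exact permutation test, the minimum for 3 against 4 arrays). Col5a2, the other chain of the type, differed by -0.08 ± 0.34 and overlapped (limma).

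Of the other fibrillar genes none was past an unadjusted p of 0.05, and their difference from those above was not tested. Col27a1, a fibrillar collagen of cartilage, was 0.24, 0.16, -0.06 and -0.45 on the +/- arrays and 0.24, 0.35, 0.73 and -0.01 on the SDHD-ESR arrays, a difference of 0.36 ± 0.20 (SE, n = 4 per group; limma, unadjusted p = 0.121). Col2a1 and Col11a2, both of cartilage, differed by 0.14 and 0.01, and Col24a1 by -0.32. In all, 7 of the 10 fibrillar genes were lower and 3 higher, with a median difference of -0.39, where 47.4% of all genes were lower. At an unadjusted p of 0.05 or less (limma) 4 of the 10 were lower, against 3.75% of all genes. As deposited, 6 were lower and 4 higher, with a median of -0.17 against 0.27 for all genes. In that setting 0 were lower and 1 higher at an unadjusted p of 0.05 or less (limma), against 0.239% and 3.65% of all genes.

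Type VI collagen is assembled from Col6a1, Col6a2 and a further chain. Col6a1 was -0.34, -0.05, -0.14 and 0.00 on the +/- arrays and -0.42, -0.95, -0.35 and -0.43 on the SDHD-ESR arrays, without overlap. Its difference was -0.40 ± 0.15 (SE, n = 4 per group; limma, unadjusted p = 0.0324, adjusted p = 0.609). Col6a2 was -0.27, -0.08, -0.47 and -0.21 on the +/- arrays and -0.40, -1.01, -0.48 and -0.53 on the SDHD-ESR arrays, where +/- replicate 3 reached into the SDHD-ESR range. It differed by -0.35 ± 0.16 (SE, n = 4 per group; limma, unadjusted p = 0.0578). The 2 chains, which lie on chromosome 10, stood within 0.02 to 0.33 of each other on every array. Without SDHD-ESR replicate 2 the differences were -0.27 and -0.21. The alternatives for the last chain, Col6a4, Col6a5 and Col6a6, lay at -0.07, -0.20 and -0.19, each overlapping.

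Fibril-associated collagens went both ways. Col14a1, which binds type I fibres, was -0.11, -0.04, -0.55 and -0.53 on the +/- arrays and -0.50, -0.99, -0.62 and -0.65 on the SDHD-ESR arrays. Its groups overlapped, and the 2 +/- arrays of slide 2 were close to the SDHD-ESR arrays. The difference was -0.39 ± 0.16 (SE, n = 4 per group; limma, unadjusted p = 0.0492, adjusted p = 0.645), with -0.67 on slide 1 and -0.10 on slide 2. Col19a1 was -1.04, 0.03, -0.74 and -1.34 on the +/- arrays and -0.42, -2.74 and -2.60 on replicates 1, 3 and 4 of SDHD-ESR. Of its 7 values 3 were at a ratio of small whole numbers, and its difference of -1.15 ± 0.63 (limma, unadjusted p = 0.116) was 0.08 on slide 1 and -1.63 on slide 2. Col16a1, by contrast, was -0.39, -0.59, -0.22 and -0.40 on the +/- arrays and -0.23, -0.39, -0.23 and 0.09 on the SDHD-ESR arrays, a difference of 0.21 ± 0.13 (limma, unadjusted p = 0.147). Over this class 3 genes were higher and 5 lower, with a median of -0.04.

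Type IV collagen is encoded by 6 genes that sit in head-to-head pairs, each pair transcribed in opposite directions from neighbouring starts. The chains of Col4a1 and Col4a2 make the network found in all basement membranes, and in their windows of RefSeq (GRCm38.p6), at chr8:11312777-11313076 on the minus strand and chr8:11312555-11312854 on the plus strand, 78 bases are shared (capitals), read on opposite strands.
Col4a1: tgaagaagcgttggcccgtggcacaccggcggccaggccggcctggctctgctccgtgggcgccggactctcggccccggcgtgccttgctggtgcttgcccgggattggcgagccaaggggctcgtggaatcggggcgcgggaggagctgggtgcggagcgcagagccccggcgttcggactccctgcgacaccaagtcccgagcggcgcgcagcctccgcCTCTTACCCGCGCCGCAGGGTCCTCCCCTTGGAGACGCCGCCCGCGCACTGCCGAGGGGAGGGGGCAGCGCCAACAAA
Col4a2: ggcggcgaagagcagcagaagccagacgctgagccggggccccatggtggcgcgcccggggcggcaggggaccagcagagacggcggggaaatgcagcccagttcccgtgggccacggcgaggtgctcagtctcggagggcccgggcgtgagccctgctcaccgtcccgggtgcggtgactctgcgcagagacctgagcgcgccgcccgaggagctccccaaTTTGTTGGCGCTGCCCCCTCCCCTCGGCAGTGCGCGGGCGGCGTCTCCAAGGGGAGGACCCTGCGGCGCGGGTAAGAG
The starts used for the windows of this pair lay 21 bases apart, and those of Col4a5 and Col4a6 on the X chromosome 1343 bases. Col4a3 on chromosome 1 had no such window, so its distance from Col4a4 is not given here.

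Col4a1, the mean of 10 features, was 0.31, 0.11, 0.32 and 0.21 on the +/- arrays and 0.16, -0.11, 0.19 and 0.37 on the SDHD-ESR arrays. Col4a2, on 1 feature, was 0.27, 0.14, 0.28 and 0.18 on the +/- arrays and 0.24, -0.08, 0.10 and 0.38 on the SDHD-ESR arrays. The pair moved from array to array together, with a gap between the chains of 0.01 to 0.09 and a median gap of 0.03. The differences were -0.09 ± 0.12 and -0.06 ± 0.11 (SE, n = 4 per group; limma, unadjusted p = 0.475 and 0.606), and the 95% intervals ran from -0.36 to 0.18 and from -0.32 to 0.20. Both turned to 0.17 and 0.20 without centring.

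Col4a3 and Col4a4 join with Col4a5 in the mature glomerular basement membrane. Col4a3 was 0.59, 0.35, 0.66 and 0.95 on the +/- arrays and 0.93, 0.61, 0.89 and 1.14 on the SDHD-ESR arrays, above the pool on all 8 arrays. Col4a4 was 0.12, -0.30, 0.21 and 0.26 on the +/- arrays and 0.03, 0.05, 0.28 and 0.30 on the SDHD-ESR arrays. Here the gap between the chains was wider, 0.45 to 0.90, with Col4a3 above Col4a4 on all 8 arrays. Col4a4 is the mean of 3 features that lay apart, and the gap to its nearest feature was 0.17 to 0.46. These features differed between the groups by -0.10, 0.14 and 0.24. Col4a3 differed between the groups by 0.26 ± 0.16 (0.023 after quantile normalization; interval -0.12 to 0.63) and Col4a4 by 0.09 ± 0.15 (interval -0.25 to 0.43; limma, unadjusted p = 0.153 and 0.545).

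Col4a5 was 0.10, 0.06, 0.32 and 0.49 on the +/- arrays and 0.06, 0.24, 0.48 and 0.40 on the SDHD-ESR arrays. Col4a6, which pairs with it outside the glomerulus, was 0.13, 0.22, 0.10 and 0.27 on the +/- arrays and 0.48, 0.02, 0.31 and 0.22 on the SDHD-ESR arrays. All values were at or above the array median, and the groups overlapped. The differences were 0.05 ± 0.14 (interval -0.27 to 0.37) and 0.08 ± 0.11 (interval -0.18 to 0.34; limma, unadjusted p = 0.715 and 0.494), and the 2 features of Col4a6 gave -0.02 and 0.18. Over type IV, 4 genes were higher and 2 lower, 0 at an unadjusted p of 0.05 or less, with a median difference of 0.07 against -0.39 for the fibrillar genes. That gap between the classes was not tested.

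**Figure D2:**
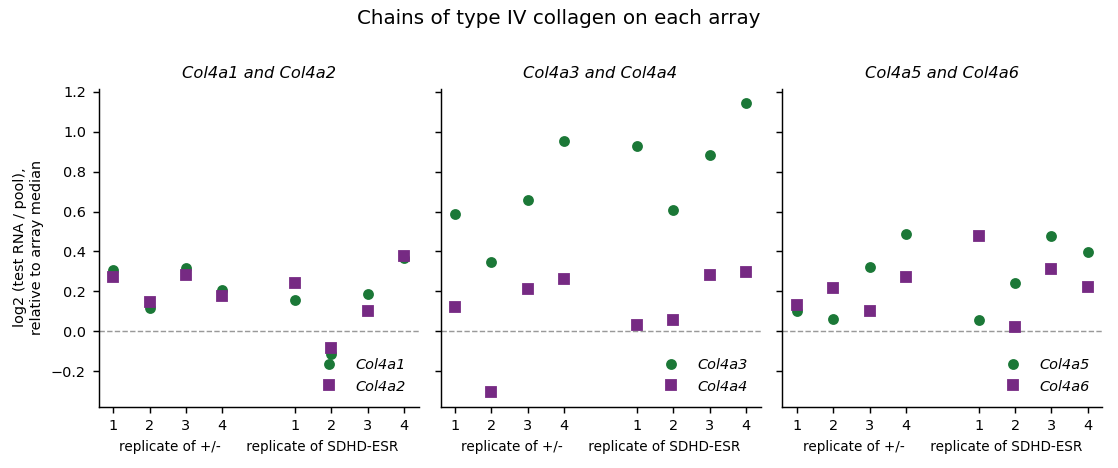
Log2 ratio over the pool relative to the array median (vertical axis) for the 3 gene pairs of type IV collagen on each replicate of +/- and SDHD-ESR (horizontal axis); replicate numbers have no order. Points of Col4a1 and Col4a2 nearly coincide on each array, while Col4a3 stands 0.45 to 0.90 above Col4a4.

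Among the remaining classes, Col26a1 was 0.19, 0.04, 0.49 and 0.69 on the +/- arrays and 0.40, 0.95, 0.83 and 0.52 on the SDHD-ESR arrays, a difference of 0.32 ± 0.19 (SE, n = 4 per group; limma, unadjusted p = 0.122). Col25a1, a transmembrane collagen of neurons and muscle, was -0.81, -0.67, -0.28 and -1.08 on the +/- arrays and 0.08, -1.10, 0.10 and -0.25 on the SDHD-ESR arrays. It differed by 0.42 ± 0.30 (limma, unadjusted p = 0.200), and single features of the gene gave 0.12 to 1.06. Col17a1, the hemidesmosome collagen of skin epithelium, was -1.32, -0.26, -0.41 and -0.82 on the +/- arrays and 0.06, -4.35, -2.97 and -0.67 on the SDHD-ESR arrays. With 4 of its 8 values at a ratio of small whole numbers, its arrays scattered over several log2 units (difference -1.28 ± 0.94; limma, unadjusted p = 0.214). The 19 collagen genes not given by array differed by -0.34 to 0.37 with standard errors of 0.10 to 0.53, 7 higher and 12 lower (smallest unadjusted p = 0.313). Col18a1, source of endostatin and a basement membrane collagen of kidney, was among them at 0.06 ± 0.11, and its partner multiplexin Col15a1 at -0.04 ± 0.44. The latter is the mean of features that gave -0.36 and 0.49.

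**Figure D3:**
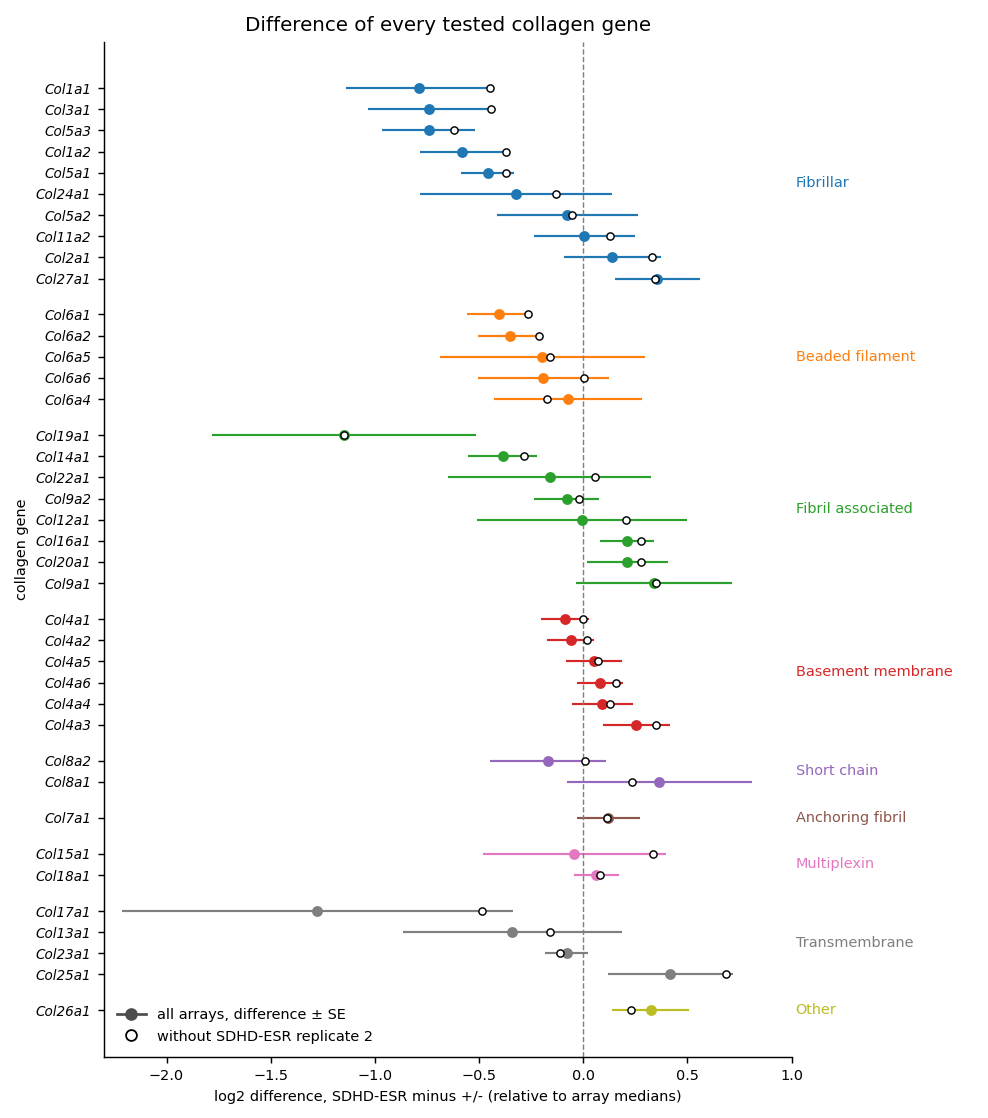
Log2 difference between SDHD-ESR and +/- relative to array medians (horizontal axis; filled points with bars of 1 SE, limma) for each tested collagen gene by class (vertical axis); open circles leave out SDHD-ESR replicate 2. The lowest fibrillar genes lie at -0.79 to -0.46 and at -0.62 to -0.37 without that array, and type IV lies between -0.09 and 0.26 with all arrays.

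A single array carried much of the size. SDHD-ESR replicate 2 was the lowest array in 19 of the 39 collagen genes and in all 6 that did not overlap, while it was the lowest in 12.7% of all genes. The median over collagen genes was -0.24, -0.26, -0.27 and -0.31 on the +/- arrays and -0.33, -0.87, -0.10 and -0.43 on the SDHD-ESR arrays. Leaving that array out, 22 collagen genes were higher and 17 lower with a median difference of 0.01, and the 8 genes of the plot of fibre collagens differed by -0.62 to -0.21, with 5 of them at an unadjusted p of 0.05 or less. These 8 are the collagen genes of smallest p among those lower in SDHD-ESR. That choice favoured a fall in parts of the same arrays, so the values are descriptive only. Relative to the array medians they were lower within both slides, by -1.32 to -0.49 on slide 1 and by -0.73 to -0.10 on slide 2. As deposited, they differed by -1.16 to -0.33 on slide 1. On slide 2 as deposited, Col5a3 differed by -0.37, Col3a1 by -0.003 and the others by 0.02 to 0.26. As deposited, without centring, the 8 genes differed by -0.56 to -0.09 over all arrays, and by -0.32 to 0.17 when SDHD-ESR replicate 2 was left out as well, a setting chosen after the data were seen. Over all collagen genes the values as deposited gave 28 higher and 11 lower, where 17593 and 2869 of all 20462 genes were. The median was 0.18 against 0.27 for all genes.

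Each group was also set against the +/+ pool, which asks whether +/- kidneys already stood apart. Col3a1 came to 57.5% of the pool in +/- and 34.4% in SDHD-ESR, and Col1a1 to 62.7% and 36.3%, relative to the array medians. With the sign as deposited these would be 174% and 291% for Col3a1 and 160% and 276% for Col1a1. In SDHD-ESR 14 collagen genes (35.9%) were called lower than the pool at an adjusted p of 0.05 or less in limma, against 8.18% of all genes, and 4 (10.3%) higher, against 16.0%. In +/- 7 (17.9%) were called lower, against 6.24%, and 1, Col4a3, higher (2.56%), against 11.1%. The pool is 1 sample in the other dye on every array, without a dye swap, so its own spread is left out and dye cannot be told apart from the difference to the pool. As deposited, 0 collagen genes were called lower in either group, where 0.0195% of all genes were in +/- and 0.103% in SDHD-ESR, and 0 were called higher. Both groups share the pool, so their values stand side by side and were not correlated.

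Of the 14 lower calls in SDHD-ESR, 7 were among the 10 fibrillar genes, 3 in type VI, 2 in fibril-associated collagens and 1 each in multiplexins and transmembrane collagens. Of all genes 8.18% were called lower in SDHD-ESR. Among the fibrillar genes were Col3a1 at -1.54 ± 0.20 (SE, n = 4; limma, adjusted p = 0.0049), Col1a1 at -1.46 ± 0.25 (adjusted p = 0.0088), Col5a3 at -1.11 ± 0.15 (adjusted p = 0.0062), Col1a2 at -0.93 ± 0.14 (adjusted p = 0.007) and Col5a1 at -0.69 ± 0.09 (adjusted p = 0.0047). Each was below the pool on all 4 arrays. The +/- means of the same genes were -0.80, -0.67, -0.37, -0.35 and -0.23, of which Col3a1 passed (adjusted p = 0.0385). In type VI, Col6a2 lay at -0.61 and Col6a5 at -1.80 in SDHD-ESR (limma, adjusted p = 0.0111 and 0.0128), and Col6a5 was as low in +/-, at -1.60 (adjusted p = 0.0248). Col14a1 came to -0.69 in SDHD-ESR (limma, adjusted p = 0.0087) and -0.31 in +/- (adjusted p = 0.105). These calls in SDHD-ESR kept an adjusted p of at most 0.0476 when any 1 array was left out. Of all 14, 4 were lost in that way, Col2a1, Col11a2, Col19a1 and Col23a1, and so were all 7 lower calls in +/-, with an adjusted p that reached 0.115 for Col3a1 and 0.0902 for Col6a5.

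The 4 genes called higher in SDHD-ESR were Col4a3, Col4a6, Col18a1 and Col26a1. Col4a3 stood at 0.89 ± 0.11 (SE, n = 4; limma, adjusted p = 0.0044), or 186% of the pool, in SDHD-ESR and at 0.64 ± 0.11 (adjusted p = 0.0157), or 155%, in +/-. Col26a1 came to 0.67 in SDHD-ESR (limma, adjusted p = 0.013) and 0.35 in +/- (adjusted p = 0.101). Leaving out 1 array raised the adjusted p in SDHD-ESR to 0.150 for Col4a6, 0.0718 for Col18a1 and 0.05005 for Col26a1, which ended these 3 calls, and that of Col4a3 in +/- to 0.0581, whereas Col4a3 in SDHD-ESR kept its call. Of the type IV genes 2 of 6 were called higher in SDHD-ESR and 1 of 6 in +/-, where 16.0% and 11.1% of all genes were. With 6 genes such counts cannot be told apart from those shares. In either group 0 were called lower, where 8.18% of all genes were in SDHD-ESR and 6.24% in +/-.

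**Figure D4:**
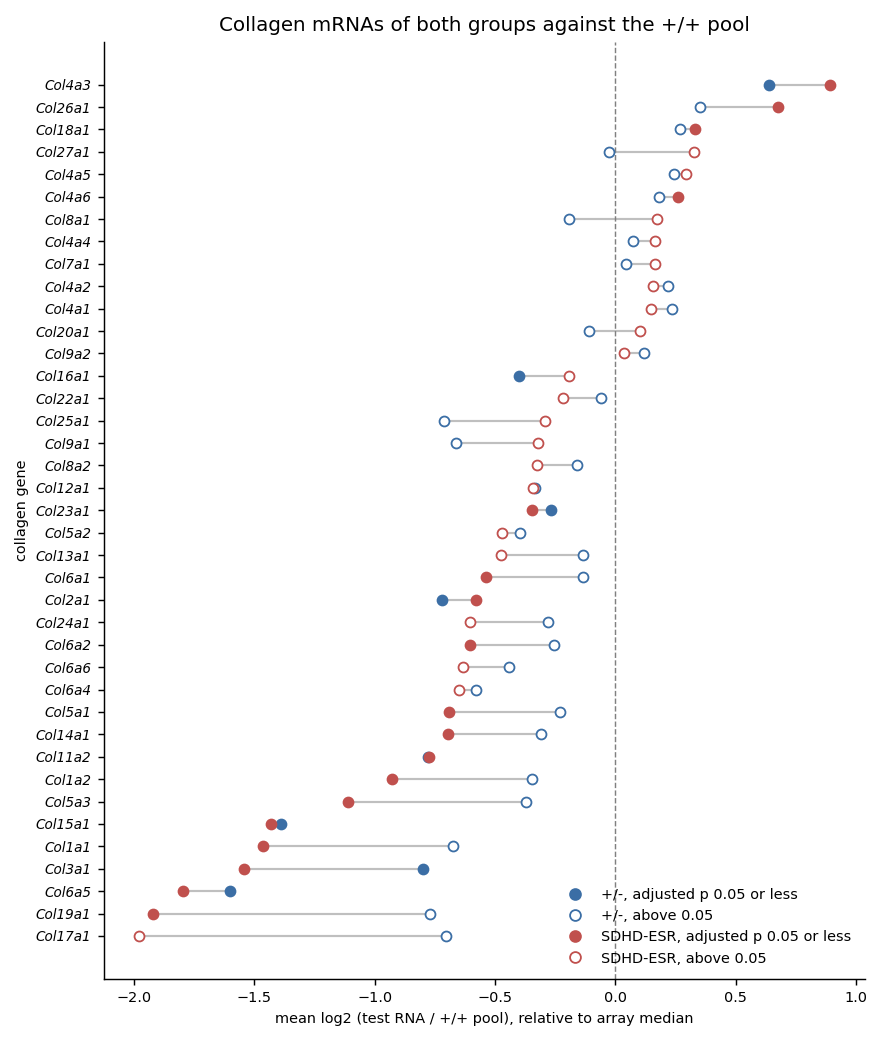
Mean log2 ratio over the +/+ pool relative to array medians (horizontal axis) of each collagen gene (vertical axis) in +/- (blue) and SDHD-ESR (red), n = 4 arrays each; filled points have a limma adjusted p of 0.05 or less. Col3a1 goes from -0.80 in +/- to -1.54 in SDHD-ESR and Col1a1 from -0.67 to -1.46, and Col4a3 is highest at 0.89.

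Genes that build, bind or degrade collagen were counted by list, and none passed adjustment between the groups (limma). Without centring most genes of these lists were higher: 16 of 18 for chain modification, 9 of 12 for cleavage and cross-linking, 8 of 10 receptors, 5 of 8 breakdown genes, 6 of 11 fibrous matrix genes, 9 of 13 basement membrane genes and 7 of 9 in TGF-beta signalling. In that setting 17593 of all 20462 genes were higher. There, 0 genes of these lists were lower at an unadjusted p of 0.05 or less (limma), against 0.239% of all genes. Unless stated, counts are relative to the array medians. For the chain-modifying enzymes and chaperones, 9 of 18 were lower and 9 higher with a median of 0.00, and the prolyl 3-hydroxylase family member P3h3 was lowest in p, at -0.31 ± 0.11 (SE, n = 4 per group; limma, unadjusted p = 0.026). P4ha1, a catalytic subunit of the prolyl 4-hydroxylase, differed by -0.16 ± 0.12, and the collagen chaperone Serpinh1 by -0.33 ± 0.27. Of the genes for procollagen cleavage and cross-linking 9 of 12 were lower, where 47.4% of all genes were. At an unadjusted p of 0.05 or less (limma) 2 of the 12 were lower, against 3.75% of all genes. Pcolce2, an enhancer of procollagen cleavage, was 0.18, 0.08, 0.12 and -0.04 on the +/- arrays and -0.66, -0.68, -0.31 and -0.09 on the SDHD-ESR arrays. It did not overlap, by -0.52 ± 0.15 (limma, unadjusted p = 0.008, adjusted p = 0.521). Loxl1, a cross-linking lysyl oxidase, differed by -0.43 ± 0.18, and its ratio was within 0.01 of 0 as deposited on 2 arrays. The same held on 6 arrays for Pcolce and on 7 for Timp3 of the breakdown genes, so that their centred values followed the array medians.

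Receptors and breakdown genes had 1 gene each at an unadjusted p of 0.05 or less (limma), where 3.96% of all genes were higher and 3.75% lower. Ddr1, a collagen-binding receptor kinase of epithelia, was 0.09, 0.22, 0.04 and -0.02 on the +/- arrays and 0.34, 0.51, 0.33 and 0.25 on the SDHD-ESR arrays, all above +/- (0.27 ± 0.09, SE, n = 4 per group; limma, unadjusted p = 0.018, adjusted p = 0.559). Ctsk, a collagen-degrading protease of the lysosome, differed by -0.59 ± 0.18 (limma, unadjusted p = 0.014), and the collagenase Mmp13 by -2.09 ± 0.95. Of the 10 receptors 7 were higher and 3 lower, and of 8 breakdown genes 4 were higher and 4 lower.

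Collagen-binding and other fibrous matrix genes were lower in 7 of 11, with a median of -0.15. Sparc, a matrix glycoprotein that binds collagen, differed by -0.53 ± 0.19 (SE, n = 4 per group; limma, unadjusted p = 0.023), Fn1, which encodes fibronectin, by -0.61 ± 0.30, and the fibril-binding proteoglycan Lum by -0.51 ± 0.25. Beyond collagen, 8 of 13 basement membrane genes were lower, where 47.4% of all genes were. At an unadjusted p of 0.05 or less (limma) 3 of the 13 were lower, against 3.75% of all genes. Nid1, the nidogen that links laminin to type IV collagen, was -0.12, 0.36, -0.01 and -0.04 on the +/- arrays and -0.35, -0.68, -0.28 and -0.41 on the SDHD-ESR arrays, without overlap, a difference of -0.48 ± 0.14 (limma, unadjusted p = 0.01, adjusted p = 0.531). The laminin chains Lama2 and Lama1 differed by -0.30 and -0.33. In TGF-beta signalling, a main inducer of fibrillar collagen genes, 5 of 9 were lower. Tgfb1 was 0.08, 0.05, -0.17 and -0.13 on the +/- arrays and -0.29, -0.32, -0.30 and -0.35 on the SDHD-ESR arrays, without overlap (-0.27 ± 0.08; limma, unadjusted p = 0.014, adjusted p = 0.547), and became -0.01 without centring.

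Markers of cells that make collagen were counted in the same way, and 0 passed adjustment. Of 9 fibroblast, pericyte and mesangial markers 7 were lower with a median of -0.19, and their mean per array ran from -0.06 to 0.13 in +/- and from -0.23 to -0.04 in SDHD-ESR. The platelet-derived growth factor receptor Pdgfrb differed by -0.37, Tagln by -0.43 and Vim by -0.29 (limma, unadjusted p = 0.037, 0.046 and 0.047). On SDHD-ESR replicates 1 and 2 this mean was -0.04 and -0.06, inside the +/- range. The mean of the fibrillar collagens was -1.26 on SDHD-ESR replicate 2. On the other SDHD-ESR arrays it was -0.65 to -0.60, inside its +/- range of -0.69 to -0.29. Endothelial markers were lower in 7 of 8 with a median of -0.25, where 47.4% of all genes were lower. At an unadjusted p of 0.05 or less (limma) 4 of the 8 were lower, against 3.75% of all genes. The list had a mean per array of -0.01 to 0.26 in +/- and of -0.21 to 0.02 in SDHD-ESR. Kdr, the main receptor of vascular endothelial growth factor, differed by -0.38 ± 0.09, Tek by -0.43 ± 0.11 and Cdh5 by -0.36 ± 0.11 (limma, unadjusted p = 0.004, 0.005 and 0.013), each without overlap. Of all genes 2.78% were lower without overlap. Without centring the medians of the 2 lists were 0.07 and 0.01, against 0.27 for all genes. In that setting 3 of 9 and 4 of 8 were lower, against 2869 of all 20462 genes. The part of either cell type in the collagen values was not tested.

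**Figure D5:**
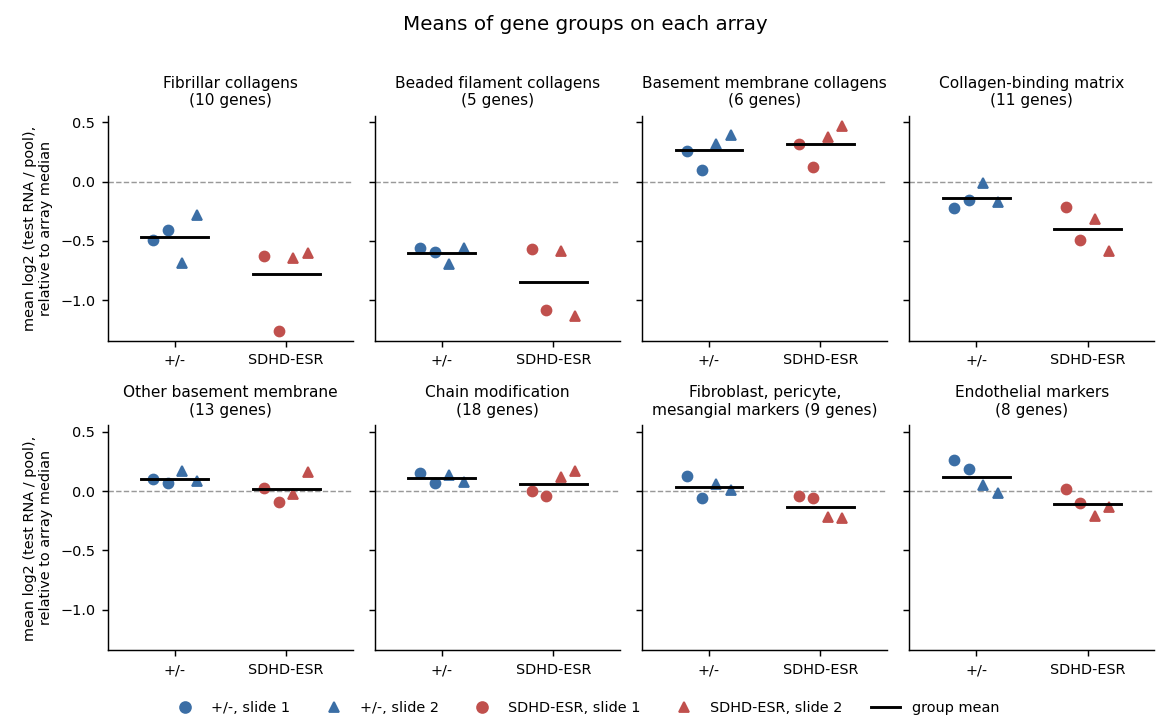
Mean log2 ratio over the pool relative to the array median (vertical axis) of 8 gene groups on each array of +/- and SDHD-ESR (horizontal axis); a point is 1 array, its shape the slide, and the bar the group mean. The fibrillar mean is -1.26 on SDHD-ESR replicate 2, while the fibroblast marker mean on that array is -0.06 and the type IV mean 0.12. On the other SDHD-ESR arrays the fibrillar mean lies inside the +/- range of -0.69 to -0.29.

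Markers of other cell types were split in direction. Podocyte markers were lower in 5 of 5 with a median of -0.04, macrophage markers in 6 of 7 with a median of -0.21, and 0 of either passed at an unadjusted p of 0.05. Without centring they turned, with 5 of 5 higher (median 0.22) and 6 of 7 higher (median 0.05). In that setting 17593 of all 20462 genes were higher (median 0.27). Urothelial markers were higher in 5 of 5 (median 0.32) and adrenal ones in 5 of 5 (median 0.18), and fat markers were split (median -0.02). Loop and distal nephron markers were higher in 3 of 5 (median 0.12), with the thiazide-sensitive transporter Slc12a3 at 0.38 ± 0.11 (SE, n = 4 per group; limma, unadjusted p = 0.01) and Umod near 0 as deposited on 6 arrays. Proximal tubule markers were lower in 5 of 6 (median -0.15), but 5 of the 6 had a deposited ratio within 0.01 of 0 on at least 2 arrays, so that after centring their values followed the array medians. All 4 proliferation genes were lower (median -0.64), with Birc5 at -0.73 ± 0.19 and Mki67 at -1.32 ± 0.42 (limma, unadjusted p = 0.006 and 0.015), both without overlap. Of all genes 3.75% were lower at an unadjusted p of 0.05 or less (limma), and 2.78% were lower without overlap.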

How the data were processed

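The members and gene lists were chosen with earlier results of these data known. Kidney RNA (200 ng for each array) was labelled with Cy5 and the +/+ pool with Cy3 and hybridized to Agilent Mouse GE 4×44 k V2 slides. The authors scanned them in a GenePix reader and used Multi-Experiment Viewer; neither background correction nor normalization is stated in the sources used here. The deposited values are a mixture, of which most are log2 ratios and 9.05% are whole numbers of up to 65024 in size; the latter were set to missing. Feature numbers were matched to the platform by a grid layout inferred from the values: r between the first 2 features of a gene was 0.370 over 4695 genes, against 0.00872 over 4014 genes for plain numbering (genes are not independent). The sign was turned so that Sdhd falls; the methods pair the scan wavelengths of Cy3 and Cy5 in reverse of the usual order, and whether channels were exchanged is not known. Arrays were centred on their medians, features of a gene were averaged, and genes with at least 3 values per group were kept.

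Groups were taken from the labels. SDHD-ESR and +/- were compared, and each with the pool, in limma 3.58.1 (R 4.3.3; prior degrees of freedom 1.50), two-sided, with Benjamini-Hochberg adjustment over 20462 genes and a threshold of 0.05. Single values have an exact permutation test. RNA of 2 mice shared an array, so p-values measure the spread between such pairs, and the number of arrays limits precision. Alternatives covered scaling, slide and replicate blocks, leaving out arrays, filters, single features and the methods' t-test. The steps were tested on simulated data. Genes given by array were Col1a1, Col3a1, Col4a1 to Col4a6 and the 12 other collagen genes of smallest p. Against the pool the 10 called genes of smallest p were named, and from each list up to 3 genes of smallest p. Some genes of these lists were not analysed here and are not reported. Promoter windows came from RefSeq (GRCm38.p6).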

Additional observations from a re-analysis of the deposited data

Results flagged for a closer look

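Sets of 4 arrays were looked at for the 20 collagen genes given by array. The sets share arrays and are not independent, so the number flagged was not set against chance. Among the 38 sets, 2 held a value far from the other 3. Both were SDHD-ESR replicate 2. Col1a2 was at -1.56 there, with the nearest other array at -0.78, and Col6a1 was at -0.95, with the nearest at -0.43. Without that array Col1a2 differed by -0.37 and Col6a1 by -0.27 from +/-.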

How the results depend on the processing

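The count of collagen genes lower in SDHD-ESR than in +/- at an unadjusted p of 0.05 or less was 6. It was 0 as deposited, 0 as deposited without SDHD-ESR replicate 2, 3 with a replicate block, and 2 to 8 when single arrays were left out, the lowest without +/- replicate 2. The methods' t-test gave 4, and 0 after Benjamini-Hochberg (1610 and 3 of all genes). The median difference of -0.08 became 0.18 as deposited and 0.39 as deposited without SDHD-ESR replicate 2. Called lower than the pool were 7 genes in +/- and 14 in SDHD-ESR, both 0 as deposited. With single arrays left out these were 0 to 9 and 10 to 14, with 0 in +/- when its replicate 1, 3 or 4 was omitted and 2 without its replicate 2. The count of collagen genes passing adjustment between the groups was 0 in every setting in which it was counted.

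Directions of Col1a1, Col3a1, Col4a3, Col4a6, Col5a3, Col27a1, Col26a1, Col16a1 and Col17a1 were kept in all settings counted, though Col4a3 was 0.023 instead of 0.26 after quantile normalization. Single slides as deposited were not among those settings. On slide 2 as deposited, Col1a1 came to 0.099 and Col3a1 to -0.003. Col4a1 and Col4a2 turned to 0.17 and 0.20 as deposited, 0.015 and 0.010 on slide 2 alone, 0.0001 and 0.020 without SDHD-ESR replicate 2, and 0.39 and 0.41 as deposited without it. In that last setting Col5a1 came to 0.016, Col1a2 to 0.016, Col6a1 to 0.12, Col14a1 to 0.10 and Col6a2 to 0.17. Without +/- replicate 2, Col4a4 was -0.034 and Col4a5 -0.0087, and without SDHD-ESR replicate 3 Col4a5 was -0.010. With single arrays left out, Col4a1 ran from -0.16 to 0.0001, Col4a2 from -0.13 to 0.020, Col4a4 from -0.034 to 0.16 and Col4a5 from -0.010 to 0.13. Col19a1 was 0.085 on slide 1 alone, and Col25a1 was -0.067 with at least 1 value per group and -0.97 with whole numbers up to 10 kept. The cause was not tested. As deposited and without SDHD-ESR replicate 2 was a combination chosen after the data were seen. Same-numbered arrays deviated from their group means with r of 0.05, 0.04, -0.02 and 0.06. These values gave no clear sign that replicate numbers pair the samples, and with 4 arrays per group they cannot exclude it. With 4 arrays per group and signal over background unknown, differences as scattered as those of Col17a1 and Col19a1 (SE 0.94 and 0.63) cannot be resolved.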

Other observations

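Features of a gene did not always give the same difference. The 10 features of Col4a1 lay between -0.14 and -0.03 and the 3 of Col16a1 between 0.11 and 0.37. The 2 features of Col14a1 gave -0.56 and -0.21. For Col15a1 they gave -0.36 and 0.49, and the 3 features of Col23a1 ran from -0.38 to 0.12, so the mean of these genes joins features of opposite sign.

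Against the pool, Col15a1 lay at -1.39 in +/- and -1.43 in SDHD-ESR, Col2a1 at -0.72 and -0.58, and Col11a2 at -0.78 and -0.77, each below the pool on all 8 arrays. Their 2 groups differed by -0.04, 0.14 and 0.01. In Col15a1 4 of 14 values, in Col2a1 2 of 8 and in Col11a2 3 of 8 were at a ratio of small whole numbers.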
